A study of Hyphopichia burtonii with 8 samples.

Results

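The genes described here are those whose RNA was more abundant in every library of Hyphopichia burtonii grown with an added solute than in either library grown without one, whichever of NaCl, KCl or sorbitol had been added. A gene belonged to the set when the lowest of its 6 solute libraries reached 10 FPKM and was at least 1.3 times the higher of its 2 YPD libraries. FPKM are fragment counts corrected for gene length and for library depth. A gene was left out when its lowest salt library was at least 1.5 times the highest YPD or sorbitol library, or when its lower NaCl library was at least 2 times the highest of the other 6. Of 6166 genes in the files, 163 met the level and the fold (2.64%). The exclusion clauses removed 14 of them, and 18 more were dropped by locus tag out of a list of 23 loci, most of them named genes of ribosome assembly, sulfate assimilation and the cell surface. This left 131 genes, 2.12% of all. The data themselves chose these genes, so every difference between a solute and YPD given below for a gene of the set is a description with no test.

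H. burtonii is a yeast, and strain KJJ43 is a wild type isolated from Nuruk, a fermentation starter. Precultured cells were moved for 1 h into YPD, a rich glucose medium, either plain or holding a solute at 1 M, which was NaCl, KCl or the sugar alcohol sorbitol. Each medium had 2 libraries, numbered 1 and 2, and YPD alone was the control. The labels do not say whether the 2 libraries of a medium came from separate cultures, so p-values measure the spread between these libraries only. The 3 solutes had the same molarity, but a salt dissociates, so salts and sorbitol differed in osmolarity as well as in kind. FPKM are shares of a library, so a change in the number of cells that express a gene, in its RNA per cell and in the rest of the RNA cannot be told apart.

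Ribosome assembly takes place mostly in the nucleolus. RNA polymerase I makes the large ribosomal RNA precursor and RNA polymerase III the 5S RNA and tRNAs, and a large group of helicases, methyltransferases and scaffold proteins folds, cuts and modifies the precursor into the small and the large ribosomal subunit. In Saccharomyces cerevisiae the genes for these factors are transcribed together and respond quickly to growth conditions and stress. Many yeasts answer high osmolarity with the HOG (high-osmolarity glycerol) kinase pathway, by making glycerol or other polyols.

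The set was mostly a group of ribosome assembly genes, genes of RNA polymerases and genes with no name. Of the 131 genes, 54 (41.2%) had a name, against 38.2% of all genes in the files. From 19 gene lists on metabolism, stress and growth, 11 contributed a gene and 8 contributed none. All lists were chosen with earlier results of these data known, so their shares are a description with no test. The ribosome biogenesis list supplied 20 of the 54 named genes (37.0%), while it holds 3.78% of all named genes in the files. Another 9 genes of this list were among the dropped loci. The list of RNA polymerases I and III supplied 4 (7.41%, against 0.637% of all named genes). No gene of the HOG pathway (23 in the files), of glycerol and polyol metabolism (11), of trehalose and glycogen (12), of heat shock and chaperones (28), of translation factors and tRNA synthetases (43), of glycolysis, fermentation and glyoxylate (26), of mitochondrial ribosome and import (29) or of amino acid synthesis (79) was in the set. Of those 79, 6 met the level and the fold, and 5 of these were among the dropped loci. The set was 2.12% of all genes, so lists of these sizes would hold few of its genes or none. Nothing is read from these absences.

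The median fold of the genes of the set over YPD lay between 2 and 3 in each solute. Their median level was 17.1 FPKM in plain YPD, against 47.4 with NaCl, 47.1 with KCl and 48.2 with sorbitol. Over the 5765 genes tested the median levels were 33.4, 36.6, 36.2 and 35.3 FPKM in the same order. The fold of the mean over YPD had a median of 2.43 in NaCl (quartiles 1.98 and 3.07), 2.48 in KCl (2.09 and 3.07) and 2.57 in sorbitol (2.097 and 3.23), against medians of 0.997, 1.01 and 0.975 over the 5765 genes tested. The lowest solute library was 1.59 times the higher YPD library in the median gene and 3.19 times at most, in a gene with no name. In 21 genes that ratio was 2 or more, 7 of them named, and in 50 it was under 1.5. At the edge of the rule, CDC20 (1.31), HEM1 (1.31) and SSF1 (1.301) were the named genes just inside, and IPK1, SOF1 and ZCF8 (1.29 each) were just outside.

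**Figure D1:**
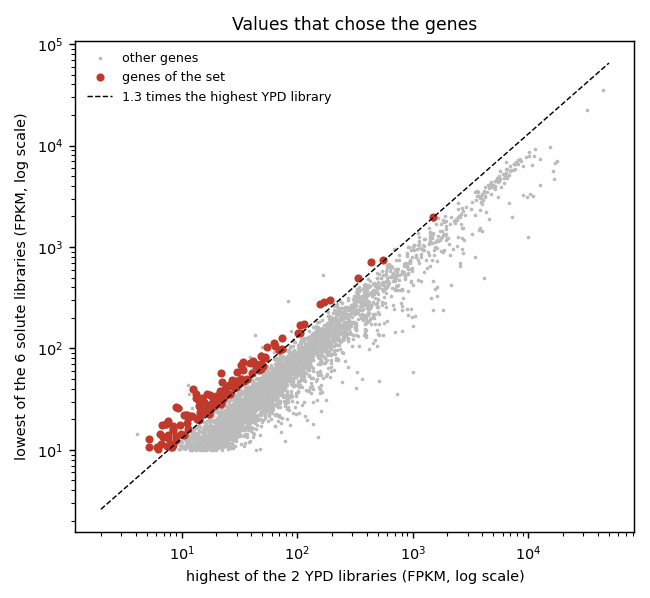
Highest of the 2 YPD libraries (horizontal axis, FPKM, log scale) against the lowest of the 6 solute libraries (vertical axis, FPKM, log scale) for each gene with at least 10 FPKM in every solute library; red points are the 131 genes of the set, grey points the other genes and the dashed line the 1.3 times threshold. The red points sit on or above the line, with a median of 19.5 FPKM on the horizontal axis, with PMA1 at the far right.

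Within each solute the library numbered 1 stood higher for most of these genes. On the log2(FPKM + 1) scale, relative to the YPD mean, the median gene of the set was at 1.36 in NaCl 1 and 1.11 in NaCl 2, at 1.42 and 1.11 in KCl, and at 1.56 and 1.06 in sorbitol. In YPD the order was the other way round, with -0.15 in library 1 and 0.15 in library 2. Over all genes tested the same medians lay between -0.03 and 0.02 in the 8 libraries. Library 1 exceeded library 2 for 96 of the 131 genes in NaCl, 105 in KCl and 104 in sorbitol, but for 25 in YPD. Among all genes tested these shares were 50.5%, 51.8%, 51.2% and 46.0%. No label names a batch, and the part of one in this was not tested. With fewer libraries the level and the fold are easier to meet, and a gene of the set can be lost only through an exclusion clause. Counts shared with the set were thus nearly fixed in advance and do not measure its stability. With the rule applied to the libraries numbered 1 alone, 511 genes met it and 127 of the 131 were among them. With those numbered 2 alone, 244 did, 119 of the 131 among them. Without YPD 2, 352 genes met the rule, and all 131 were among them.

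**Figure D2:**
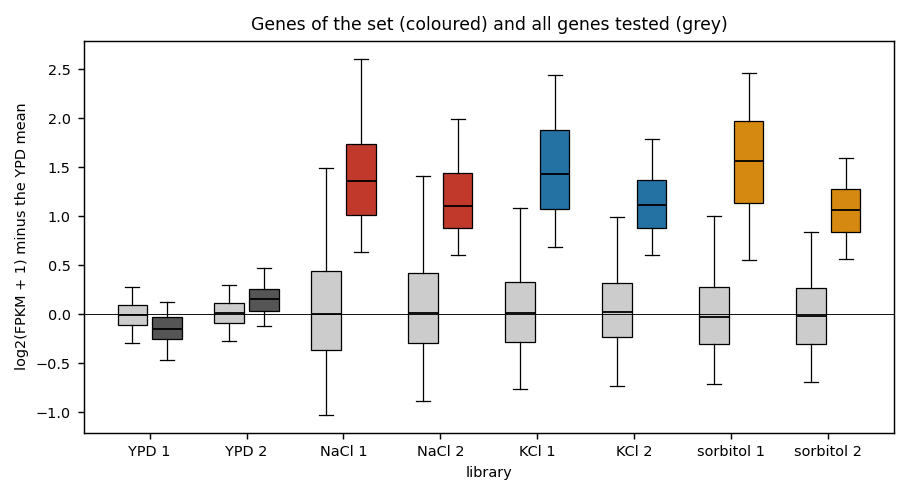
Level in each of the 8 libraries, as log2(FPKM + 1) minus the gene's YPD mean, for the 131 genes of the set (coloured boxes) and for the 5765 genes tested (grey boxes); boxes span the quartiles, the line is the median and whiskers reach the 5th and 95th percentiles. The coloured medians lie between 1.06 and 1.56 in the solute libraries and are higher in library 1 than in library 2 of each solute, while the grey medians stay near 0.

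Genes of the small ribosomal subunit gave the highest folds among the ribosome assembly genes. BUD23 (HYPBUDRAFT_152909), the methyltransferase that modifies 18S ribosomal RNA in S. cerevisiae, was at 4.63 and 5.17 FPKM in YPD. It reached 46.6 and 28.8 in NaCl, 49.3 and 16.9 in KCl and 43.6 and 10.7 in sorbitol. Its solute libraries thus differed among themselves by more than the solutes did, and sorbitol 1 was 4.07 times sorbitol 2, the widest gap of any gene of the set in sorbitol. DIM1 (HYPBUDRAFT_151439), the dimethylase of the same RNA, stood at 13.1 and 16.5 FPKM in YPD, 81.3 and 41.7 in NaCl, 85.8 and 35.5 in KCl, and 97.1 and 44.8 in sorbitol. All 3 solutes gave 1 high and 1 lower library of DIM1, and both were above YPD in each case.

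IMP4 (HYPBUDRAFT_109994), a protein of the U3 small nucleolar particle, had 14.1 and 14.98 FPKM in YPD against 52.5 and 32.8 in NaCl, 45.3 and 34.6 in KCl and 62.4 and 40.3 in sorbitol. The log2 change was 1.45 ± 0.28 (SE) in NaCl, 1.39 in KCl and 1.72 in sorbitol, each with the same SE. SAS10 (HYPBUDRAFT_13789), another component of the small subunit processome, was at 14.9 and 27.5 FPKM in YPD, and in the solutes it ran from 49.0 (NaCl 1) to 77.6 (sorbitol 1), with both NaCl libraries below the 4 others. The remaining genes of this role were NOC4, NEP1, BUD21, TSR2, NOP6 and UTP5. Over the 10 small subunit genes the median fold was 2.51 in NaCl, 2.83 in KCl and 2.94 in sorbitol.

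For the large subunit there were 12 genes, with median folds of 2.29, 2.54 and 2.67 in the same order. HAS1 (HYPBUDRAFT_152662), a DEAD-box RNA helicase, was at 27.1 and 33.8 FPKM in YPD, 103 and 78.3 in NaCl, 131 and 73.9 in KCl, and 122 and 74.6 in sorbitol. Its 3 solute libraries numbered 1 were all at 103 FPKM or more and the 3 numbered 2 at 78.3 or less. RRS1 (HYPBUDRAFT_151369), which helps to bring 5S RNA into the large subunit, was tighter, with 51.2 and 54.4 FPKM in YPD and between 104 and 146 in the 6 solute libraries. DBP7 (HYPBUDRAFT_154862), a helicase, ran from 6.27 and 11.4 FPKM in YPD to between 20.9 and 33.8 with solutes, and RPF1 (HYPBUDRAFT_103040) from 38.0 and 41.6 to between 75.9 and 127.

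NOP15 (HYPBUDRAFT_149544), an RNA-binding protein of early large subunit particles, was the most abundant gene of ribosome assembly in the set. It had 80.7 and 105 FPKM in YPD, 169 and 176 in NaCl, 216 and 186 in KCl, and 317 and 192 in sorbitol. Both NaCl libraries lay below the other 4 solute libraries. SSF1 (HYPBUDRAFT_151711), at 24.9 and 48.6 FPKM in YPD, met the threshold by its lowest solute library of 63.2 in NaCl 2. MAK5, NOP4, DBP3, RPF2, ECM1 and NOP8 completed the group. All 22 genes of both subunits were lower in YPD 1 than in YPD 2, and all 22 were higher in sorbitol 1 than in sorbitol 2. NOC4, picked out after its values were seen, had the widest gap in YPD (6.66 and 18.6 FPKM), while its 6 solute libraries lay between 32.2 and 41.3.

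**Figure D3:**
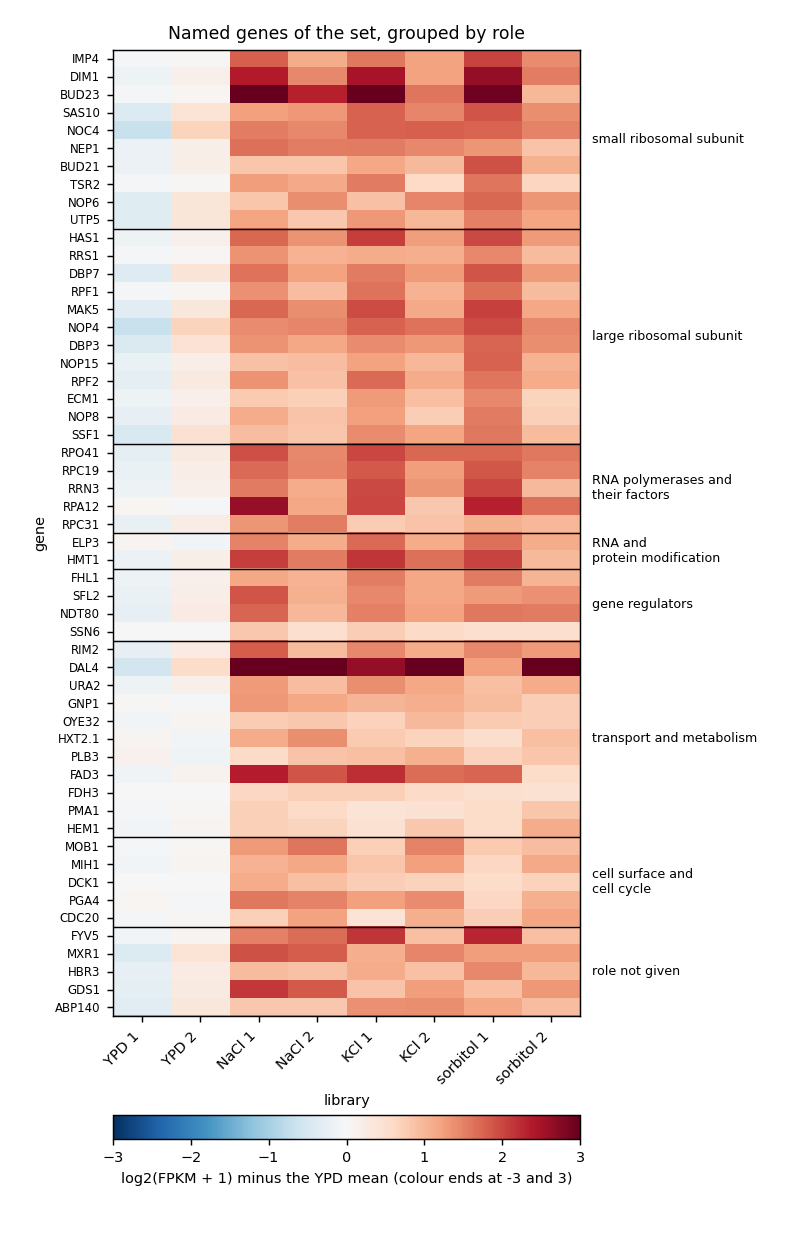
The 54 named genes of the set (rows, grouped by role) in the 8 libraries (columns), coloured by log2(FPKM + 1) minus the gene's YPD mean; red is higher, blue lower, and the scale ends at 3. In sorbitol, library 1 is higher than library 2 in all 22 ribosomal subunit rows and all 5 polymerase rows, in 5 of the 11 transport and metabolism rows and in 0 of the 5 cell surface and cell cycle rows. BUD23 and DAL4 pass the end of the scale.

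The set held 5 genes of RNA polymerases and their factors. RPC19 (HYPBUDRAFT_153246), a subunit shared by polymerases I and III, was at 24.5 and 32.5 FPKM in YPD, 93.7 and 79.6 in NaCl, 104 and 68.4 in KCl, and 106 and 80.9 in sorbitol. RRN3 (HYPBUDRAFT_88792), the factor that recruits polymerase I to its promoter, had 5.88 and 7.56 FPKM in YPD and between 13.96 and 29.9 with solutes. RPA12 (HYPBUDRAFT_104302), a polymerase I subunit, had the widest gap between the NaCl libraries of any gene of the set, at 89.9 and 32.3 FPKM. Its YPD libraries were at 14.6 and 13.3, so both were above YPD.

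RPC31 (HYPBUDRAFT_114495), of polymerase III, was close between libraries and ordered by solute. It was at 9.68 and 13.5 FPKM in YPD, 30.4 and 35.0 in NaCl, 20.2 and 21.4 in KCl and 24.95 and 23.9 in sorbitol, so that no 2 solutes overlapped. RPO41 (HYPBUDRAFT_8884), the polymerase that transcribes mitochondrial DNA, had the largest ratio of any named gene, 2.47. It was at 3.23 and 5.20 FPKM in YPD, 18.6 and 12.8 in NaCl, 19.4 and 16.0 in KCl, and 16.0 and 14.4 in sorbitol, and its solute values overlapped. ELP3 (HYPBUDRAFT_101341), the catalytic subunit of the Elongator complex that modifies tRNA, was at 22.4 and 19.9 FPKM in YPD and between 46.8 and 71.1 with solutes. HMT1 (HYPBUDRAFT_151108), a protein arginine methyltransferase, had 37.4 and 48.3 FPKM in YPD and between 84.1 (sorbitol 2) and 192 (KCl 1) with solutes.

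A group of 4 named genes encodes regulators of transcription. FHL1 (HYPBUDRAFT_243293), which controls ribosomal protein genes in S. cerevisiae, was at 5.37 and 6.95 FPKM in YPD and between 13.4 and 20.1 in the solute libraries. SFL2 (HYPBUDRAFT_166396), a regulator of filamentous growth in Candida albicans, had 11.9 and 15.8 FPKM in YPD, 53.4 and 29.9 in NaCl, and between 32.0 and 38.7 in KCl and sorbitol. SSN6 (HYPBUDRAFT_152290), of the general corepressor with Tup1, was steady in YPD at 101 in both libraries and lay between 143 and 177 with solutes. NDT80 was the other. None of these had a solute whose 2 libraries stood clear of the other 4.

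Transport and metabolism genes held the most abundant members. PMA1 (HYPBUDRAFT_124362), the proton pump of the plasma membrane, was at 1442 and 1498 FPKM in YPD, 2424 and 2193 in NaCl, 1962 and 2019 in KCl, and 2153 and 2600 in sorbitol. Both KCl libraries were below the other 4 solute libraries. GNP1 (HYPBUDRAFT_152753), an amino acid permease, stepped down from 1052 and 946 FPKM in NaCl to 861 and 909 in KCl and 822 and 707 in sorbitol, against 436 and 415 in YPD, and no 2 of these media overlapped. FDH3 (HYPBUDRAFT_157071), a glutathione-dependent formaldehyde dehydrogenase, was at 550 and 534 FPKM in YPD, between 804 and 894 in the salts, and at 756 and 745 in sorbitol.

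DAL4 (HYPBUDRAFT_152071), an allantoin permease, had the highest fold in the salts and the widest spread. It was at 2.63 and 6.69 FPKM in YPD, 77.8 and 149 in NaCl, 31.9 and 125 in KCl, and 11.5 and 40.6 in sorbitol, so the library numbered 2 was the higher in every medium. The fold of means was 24.4 in NaCl, 16.9 in KCl and 5.59 in sorbitol, and the solute means differed by 4.36 times, the most in the set. FAD3 (HYPBUDRAFT_151754), a fatty acid desaturase, was higher in library 1 of every solute but not of YPD, with 41.4 and 48.0 FPKM in YPD, 231 and 166 in NaCl, 211 and 144 in KCl, and 153 and 65.6 in sorbitol. URA2 (HYPBUDRAFT_152994), which opens pyrimidine synthesis, was at 60.1 and 74.2 FPKM in YPD and between 126 and 179 with solutes.

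OYE32 (HYPBUDRAFT_153972), of the old yellow enzyme family of oxidoreductases, was at 102 and 115 FPKM in YPD and between 175 and 214 in all solute libraries. HEM1 (HYPBUDRAFT_152770), of the first step of haem synthesis, was at 42.3 and 47.2 FPKM in YPD and between 61.7 and 97.9 with solutes. HXT2.1, a sugar transporter gene that the files list by symbol, was at 8.11 and 7.12 FPKM in YPD, 17.6 and 21.6 in NaCl, 13.8 and 12.7 in KCl and 11.5 and 15.02 in sorbitol. Its NaCl libraries were above the rest. The nucleotide carrier gene RIM2 and the phospholipase gene PLB3 were the remaining genes of this role.

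A further 5 genes act at the cell surface or in the cell cycle. PGA4 (HYPBUDRAFT_152445), a glucan-remodelling enzyme anchored at the cell surface, was at 336 and 305 FPKM in YPD, 965 and 907 in NaCl, 748 and 854 in KCl, and 493 and 668 in sorbitol, with no overlap between any 2 media. CDC20 (HYPBUDRAFT_134362), the activator of the anaphase-promoting complex, had 20.5 and 21.7 FPKM in YPD, 35.2 and 50.04 in NaCl, 28.4 and 45.9 in KCl, and 35.7 and 48.8 in sorbitol. MOB1, MIH1 and DCK1 were the others. In contrast with the ribosome genes, all 5 were lower in sorbitol 1 than in sorbitol 2. FYV5, for which no role is given, was at 7.43 and 8.47 FPKM in YPD, 24.6 and 27.8 in NaCl, 38.5 and 15.8 in KCl, and 42.9 and 15.8 in sorbitol. GDS1 (HYPBUDRAFT_144674), also given no role, was at 9.65 and 14.3 FPKM in YPD and 54.8 and 45.002 in NaCl, but between 22.0 and 30.5 in KCl and sorbitol.

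**Figure D4:**
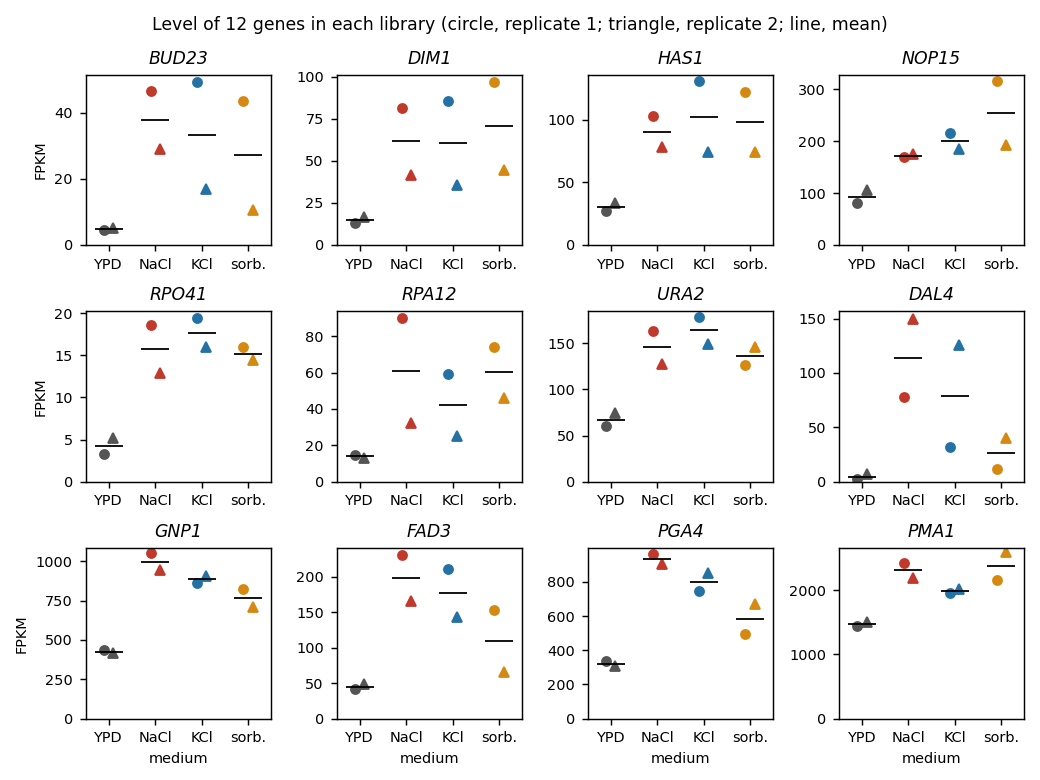
Level in FPKM (vertical axes start at 0) of 12 named genes in the 4 media; circles are library 1, triangles library 2 and lines the mean of both. In every panel the solute points lie above the YPD points, while the order of library 1 and library 2 in the solutes is opposite in DIM1 and DAL4.

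Between solutes, tests were made in 3 directions that the exclusion clauses did not bound: higher in sorbitol than in NaCl, higher in KCl than in NaCl, and higher in sorbitol than in KCl. The main clause still bore on them, since it asked for a minimum in all 6 solute libraries and so removed genes that stayed near YPD in 1 solute. The shares below are therefore not free of the choice of the genes, and nothing is read from their distance to the shares of all genes. The opposite directions were bounded by the exclusion clauses and have no test here. By limma on log2(FPKM + 1), adjusted over 5765 genes, 2 of the 131 genes were higher in sorbitol than in NaCl (1.53%, against 13.6% of all genes tested), and 6 were at an unadjusted p under 0.05. For KCl over NaCl it was 1 gene (0.763%, against 3.99%). For sorbitol over KCl limma called 0 (against 2.53% of all genes), and 2 were at an unadjusted p under 0.05. Neither gene called has a name. HYPBUDRAFT_161789 was at 90.4 and 106 FPKM in YPD, 141 and 144 in NaCl, 158 and 156 in KCl, and 196 and 214 in sorbitol. It was higher in sorbitol than in NaCl by 0.52 ± 0.13 log2 units (SE; limma adjusted p = 0.019), in both libraries. HYPBUDRAFT_159189, with 128 and 158 FPKM in YPD, was at 291 and 276 in NaCl, 413 and 451 in KCl and 373 and 390 in sorbitol. Its difference from NaCl was 0.60 ± 0.14 in KCl (limma adjusted p = 0.028) and 0.43 ± 0.14 in sorbitol (limma adjusted p = 0.046). The first count became 0 without NaCl 1, NaCl 2 or sorbitol 1, 1 without KCl 1 or KCl 2 and 5 without sorbitol 2, and the second became 0 without any 1 NaCl or KCl library.

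A missed threshold does not show that the solutes acted alike, and some genes were ordered by solute without overlap. The highest of the 3 solute means was under 1.5 times the lowest in 109 of the 131 genes and at least 2 times in 3, with a median of 1.25. Sorbitol gave the highest mean in 59 genes, NaCl in 40 and KCl in 32, and the lowest mean was in NaCl for 63. Both NaCl libraries lay below the other 4 solute libraries in 17 genes (13.0%, against 21.4% of all genes tested), among them SAS10, NOP15 and SSF1, and above them in 13 (9.92%, against 21.5%), among them GNP1, PGA4, RPC31 and HXT2.1. Both sorbitol libraries were below the 4 salt libraries in 9 (6.87%, against 19.6%) and above them in 3 (2.29%, against 17.5%), none of the 3 with a name. Both KCl libraries were above the rest in 5 (3.82%, against 6.02%) and below in 4 (3.05%, against 5.07%). These counts are a description, since the rule limited them.

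In the ribosome biogenesis list as a whole, limma called more genes higher than lower with each solute, in NaCl only through genes that had met the level and the fold. The 3 comparisons share the YPD libraries. It had 89 genes in the files, of which 20 were in the set, 9 were among the dropped loci and 60 did not reach the level or the fold. By limma, adjusted over all genes tested, 31 of the 89 were higher in NaCl than in YPD and 4 lower (16.0% and 11.5% of all genes), 36 and 0 in KCl (6.45% and 4.51%), and 46 and 0 in sorbitol (3.75% and 1.21%). The median log2 change of the list was 0.48 in NaCl, 0.75 in KCl and 1.00 in sorbitol, while that of all genes tested lay between -0.04 and 0.01. These counts and the choice of the set drew on the same values. Calls against YPD in genes of the set and in dropped loci were thus largely fixed in advance and are no test. Nothing is read from the distance between the whole list and the shares of all genes. Of the genes higher, 19 in NaCl, 17 in KCl and 15 in sorbitol were in the set, and 9 in each were dropped loci, which had met the same level and fold. Among the 60 genes that had not met them, 3, 10 and 22 were higher. All 4 genes lower in NaCl were also among these 60, so more of them were called lower than higher in NaCl. The median log2 change of the 60 was 0.24, 0.61 and 0.83. Those 60 were chosen by the same values, in the other direction. NOG1, a GTPase of large subunit assembly, was lower in NaCl (log2 change -1.09, limma adjusted p = 0.0049), at -0.10 in KCl and 0.57 in sorbitol, where it was not called. ARX1, an export factor of the large subunit, also fell in NaCl by 0.78 log2 units (limma adjusted p = 0.013), and CGR1 and CKA1 were the other 2 that fell. These 4 were picked after their values were seen.

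These list counts moved when single libraries were removed. A library outside a comparison leaves its log2 changes as they are and bears on its calls through the shared estimate of the spread. Of the YPD libraries, the counts moved far without YPD 1 and little without YPD 2. For NaCl the 31 became 6 without YPD 1, 3 without NaCl 1 and 19 without NaCl 2. For KCl the 36 became 1 without YPD 1, 22 without NaCl 1 or NaCl 2, 2 without KCl 1 and 20 without KCl 2. For sorbitol the 46 became 0 without YPD 1, 5 without NaCl 1 or NaCl 2, 0 without sorbitol 1 and 27 without sorbitol 2. Between solutes, 22 of the 89 genes were higher in sorbitol than in NaCl by limma (24.7%, against 13.6% of all genes), with a positive difference in 84 and a median of 0.51 log2 units. The rule asked for a minimum in every NaCl library and so limited this difference in genes of the set, from which nothing is read. None of the 22 was in the set, whose 20 list genes had a median difference of 0.21, a largest one of 0.66 and a lowest limma adjusted p of 0.094. That count became 34 without either YPD library, 11 without NaCl 1, 6 without NaCl 2 and 9 without sorbitol 1.

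**Figure D5:**
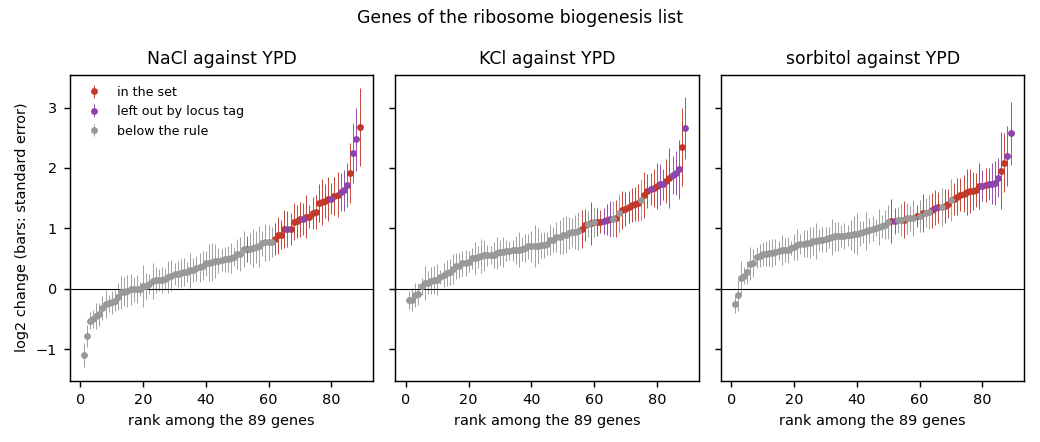
Log2 change against YPD of the 89 genes of the ribosome biogenesis list in NaCl, KCl and sorbitol, each panel sorted from lowest to highest, with limma standard errors; red genes are in the set, purple ones are loci left out by tag and grey ones did not meet the rule. Most grey points are above 0 in each panel, and in NaCl the lowest point, NOG1, is at -1.09.

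Among 15 genes of RNA polymerases I and III and their factors, 4 were in the set. Limma called 5 higher and 2 lower in NaCl (16.0% and 11.5% of all genes), 4 and 0 in KCl (6.45% and 4.51%), and 6 and 0 in sorbitol (3.75% and 1.21%), with medians of 0.56, 0.68 and 0.90 log2 units. Genes of the set made up 4, 3 and 2 of those higher, and 1, 1 and 4 came from the 11 that had not met the rule. The same values had chosen the genes of the set, so their calls are no test. Both genes lower in NaCl were among the 11. RPA190, the largest polymerase I subunit, fell in NaCl by 0.65 log2 units (limma adjusted p = 0.035) and was at 0.67 in sorbitol (limma adjusted p = 0.081). MAF1, which represses polymerase III, fell in NaCl by 0.93 (limma adjusted p = 0.0061). Both were picked after their values were seen. The 5 higher in NaCl became 2 without YPD 1 or NaCl 1 and 3 without YPD 2. The 4 in KCl became 0 without YPD 1, 1 without KCl 1 and 2 without KCl 2, NaCl 1 or NaCl 2. In sorbitol the 6 became 0 without YPD 1 or sorbitol 1, 1 without NaCl 1 or NaCl 2 and 3 without sorbitol 2, and 10 with the replicate number as a block.

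The 77 genes without a name resembled the named ones in size of change. Their median fold was 2.43 in NaCl, 2.48 in KCl and 2.57 in sorbitol, against 2.45, 2.49 and 2.56 for the named. They made up 14 of the 21 genes whose ratio was 2 or more and 13 of the 20 largest ratios. Their median level in YPD was lower (14.8 FPKM, against 21.5), and their median gene length was 1095 nt, against 1548 nt for the named and 1311 nt for all genes tested. In sorbitol 65 of the 77 were higher in library 1 than in library 2, as were all 20 genes of the ribosome biogenesis list and 19 of the other 34 named genes.

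In the annotation, 4 pairs of genes of the set were next to each other, among them DBP7, SSF1 and HBR3, each beside a gene with no name. The whole set took 0.432% and 0.466% of the summed FPKM in the YPD libraries and between 0.782% (sorbitol 2) and 1.196% (NaCl 1) in the solute libraries. The steps between low values gave estimates of the fragments behind these values. The smallest was 37.1 fragments, for 1 unnamed gene in YPD 1, and the median gene of the set had 428 in that library.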

How the data were processed

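RNA was sequenced from 8 libraries, 2 for each of 4 media, grouped by their titles. The deposited files give 1 value per gene, which was taken as FPKM made by the authors, because TopHat and Cufflinks stand, without versions, in the submitters' processing notes and the values are not whole numbers. Build, annotation and strand setting: not given in the sources used here. No scaling was added. Summed FPKM per library ran from 1197308 to 1649003. Names came from RefSeq assembly Hypbu1, of another strain, which matched 6157 of 6166 genes by locus tag. Roles are background from other yeasts. No promoter or protein sequences were used here.

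Depth was estimated from the steps between low values, of which 88.3% to 91.5% came within 0.15 of a whole multiple. Relative depth differed by up to 2.23 times. Intervals were not drawn from it.

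The 5765 genes that reached 1 FPKM in 2 or more libraries were fitted with limma 3.58.1 in R 4.3.3 on log2(FPKM + 1), with 4 groups in 1 model over all 8 libraries, an intensity trend and 4 residual degrees of freedom (8.31 with the prior). P-values were adjusted by Benjamini-Hochberg over all genes tested and called under 0.05. The added 1 makes changes of low genes smaller. The fit was tested on simulated data.

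The genes of the set, the lists and the roles were chosen with earlier results of these data known. Named genes are those with the 15 largest ratios, the 10 highest levels, the called differences, up to 6 per list, the 3 at the threshold and the 3 whose solutes differ most. Values for other members are ranges, or were picked after they were seen. Scaling, filters, pseudocounts, the rule's thresholds, a replicate block and the removal of each library were tried as alternatives.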

Additional observations from a re-analysis of the deposited data

Results flagged for a closer look

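In the 3 directions tested between solutes, 3 differences passed limma's threshold, among genes that the same solute libraries had helped to choose. For HYPBUDRAFT_161789 the change against YPD was larger in sorbitol than in NaCl by 0.52 log2 units, in both libraries of each. For HYPBUDRAFT_159189 it was larger in sorbitol than in NaCl by 0.43 and in KCl than in NaCl by 0.60 log2 units. The opposite directions have no test here because the exclusion clauses bounded them, and they held larger differences, such as -0.89 for GDS1 and -0.70 for PGA4 (sorbitol minus NaCl, log2). Each of the 3 kept its sign under every alternative tried, and the limma adjusted p ranged from 0.015 to 0.096, from 0.037 to 0.18 and from 0.021 to 0.14.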

How the results depend on the processing

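The set of 131 genes became 81 at 1.5 times YPD, 511 with the libraries numbered 1 alone and 244 with those numbered 2 alone, both of these chosen after seeing the data. Removal of 1 library gave 133 to 352 genes, the most without YPD 2. Fewer libraries can only loosen the level and the fold, so counts from fewer libraries do not measure stability. Quantile normalization gave 112 genes, 108 of them shared. Genes of the set higher in sorbitol than in NaCl (2) became 1 under quantile normalization and 1 with no intensity trend, and 0 to 5 when 1 library was removed. Those higher in KCl than in NaCl (1) became 0 with no intensity trend and 0 to 1 with 1 library removed, and those higher in sorbitol than in KCl stayed at 0 in all of these. With the replicate number as a block the 3 counts were 2, 1 and 0. The numbers pair the libraries by number only: deviations of same-numbered libraries correlated across 5765 genes at -0.13 (YPD and NaCl) to 0.45 (KCl and sorbitol). Across the genes of the set they were higher between solutes, at 0.69 (NaCl and KCl), 0.52 (NaCl and sorbitol) and 0.79 (KCl and sorbitol). The block took the polymerase genes higher in sorbitol from 6 to 10 and moved no other list count by over 1.5 times. With 1 library removed, ribosome biogenesis genes higher than YPD ranged from 3 to 36 in NaCl, 1 to 37 in KCl and 0 to 44 in sorbitol, polymerase genes from 2 to 6, 0 to 4 and 0 to 7, and ribosome biogenesis genes higher in sorbitol than in NaCl from 6 to 34. Each fit with a library removed also had fewer libraries, and the cause of these ranges was not tested. Promoter motif shares were not run, since no promoter table was used here. Depth limits the low end, where the smallest estimate was 37.1 fragments.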
